A study of Danio rerio with 8 samples.

Results

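A set of 5 genes that are widely used as reference genes in RT-qPCR was followed through the RNA sequencing libraries of sorted zebrafish cells and whole embryos. They were hprt1 (ENSDARG00000008884), eef1a1l1 (ENSDARG00000020850, also called elfa), actb1 (ENSDARG00000037746), actb2 (ENSDARG00000037870) and gapdh (ENSDARG00000043457), chosen by these identifiers as 5 of the 35117 genes counted. All 5 had counts in every library and passed the filter on low counts in every comparison.

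A reference gene is the yardstick of an RT-qPCR experiment, because the quantity of every other transcript is divided by it, so any change in the reference between samples is carried into all other values. The 5 genes belong to different cellular functions. The protein of hprt1 salvages hypoxanthine and guanine for purine nucleotides, that of eef1a1l1 brings aminoacyl-tRNA to the ribosome, those of actb1 and actb2 are the cytoplasmic beta-actins of the cytoskeleton, and that of gapdh is an enzyme of glycolysis.

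The libraries came from the transgenic line Tg(fli1a:EGFP), which carries EGFP under the fli1a promoter, active in endothelial cells and in cells of the neural crest and its cartilage. Groups were sorted cells of run 2 (1 RNA per kit, each sequenced as technical replicates a and b), sorted cells of run 1 (1 RNA per kit) and whole embryos (1 embryo per kit), which gave 8 libraries of 6 RNA samples. Each sorted RNA was isolated from 20000 EGFP positive cells and has a recorded age of 3 days, whereas each whole embryo has a recorded age of 5 days. The kits were the RNeasy plus micro kit (libraries Q_2a, Q_2b, Q_1 and Q_unsorted) and the RNAqueous micro kit (A_2a, A_2b, A_1 and A_unsorted). According to the methods, cDNA of run 2 of the sorted cells was amplified for more cycles and from another RNA input than that of run 1 and of the embryos. The embryos were sequenced together with run 2 of the sorted cells. Sorting and recorded age therefore cannot be told apart in either comparison with embryos, nor can amplification in that of run 2 or the sequencing run in that of run 1. The record of Q_1 gives sample number 2 in its title and 1 in its source name, and it was taken as run 1. By the study's methods all sorted samples were taken from 1 pool of fish, and each kit was used on 1 embryo, so p-values measure only the spread between these samples, which for sorted cells is not a spread between animals.

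The libraries held 10763174 to 19537939 counts on genes, and the 5 reference genes together took 1.49% to 2.75% of them. Levels are given as CPM, the count of a gene scaled to a fixed total of counted reads. They are not comparable between genes, since no gene length was used. For 1 gene they are comparable only roughly between libraries. The further scaling factors (TMM) of the 6 RNA samples ran from 0.809 in A_1 to 1.16 in the RNAqueous RNA of run 2. As a check of the labels, all 7 endothelial genes listed were higher in sorted cells of run 2 than in whole embryos, with summed levels of 469 to 612 CPM in run 2, 529 to 626 CPM in run 1 and 73.9 to 97.6 CPM in whole embryos. All 6 cartilage and neural crest genes matched to 4 listed symbols were higher as well. They summed to 27269 to 40148 CPM in run 2, 8963 to 21588 CPM in run 1 and 2041 to 3180 CPM in whole embryos. Skeletal muscle genes summed to 7956 to 12227 CPM in run 2 and 9630 to 14790 CPM in run 1, against 63691 to 69946 CPM in whole embryos, and no listed marker was at 0 in any library. Of the other listed cell types, 5 of 6 neuron genes and 3 of 3 epidermis genes were lower in sorted cells of run 2 than in whole embryos, with summed levels of 557 to 678 and 1866 to 2736 CPM in run 2, 792 to 815 and 848 to 1079 CPM in run 1, and 1571 to 2390 and 9468 to 11762 CPM in whole embryos. Of the erythrocyte genes, 0 of 3 passed the edgeR test in run 2. They summed to 975 to 1876 CPM in run 2, 2346 to 5493 CPM in run 1 and 1296 to 1424 CPM in whole embryos. Over all 21377 genes tested in run 2 against embryos, edgeR called 5016 higher and 6029 lower. In run 1 it called 3511 higher and 5159 lower of 20254. There 6 of 7 endothelial and 6 of 6 cartilage and neural crest genes were higher. Lower in run 1 were 3 of 3 epidermis and 5 of 6 neuron genes, while 1 gene of the neuron list, named STMN1 (ENSDARG00000004169), was higher. The 6 neuron genes were matched to 4 listed symbols. Another gene named STMN1 (ENSDARG00000033655) was lower in run 2, and which of them is the listed marker was not determined.

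Counting error was small for 4 of the 5 genes and not for hprt1, whose level rested on 120 to 611 counts per library. In the technical replicates, hprt1 had 9.71 CPM in Q_2b and 11.0 CPM in Q_2a, which is a difference of 13.8%. In the other RNA it had 11.3 CPM in A_2b and 15.0 CPM in A_2a, a difference of 32.1%. The Poisson interval of that log2 difference, -0.70 to -0.10, excluded 0, whereas that of the RNeasy RNA, -0.49 to 0.12, included it. The other reference genes differed by 0.640% to 7.46% between technical replicates of the same RNA. These smaller differences also went beyond counting error for eef1a1l1, actb1 and actb2, whose Poisson intervals excluded 0 in both RNA samples. For actb1 in the RNAqueous RNA the interval was 0.075 to 0.102. The intervals of gapdh included 0 in both. For actb1 and actb2 the difference changed direction between the kits, replicate b being higher in the RNAqueous RNA and lower in the RNeasy RNA.

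The first comparison asked whether the reference genes had the same level in sorted cells of run 2 as in whole embryos. In the main test, gapdh and hprt1 were lower in sorted cells, and actb1, actb2 and eef1a1l1 did not pass. That test had no covariate, so any difference between the kits counted as spread within a group. With kit as a covariate, actb1 and actb2 passed as well, in a fit that called 11718 genes in all, as given below. Over all genes, the main edgeR test called 11045 of 21377 (51.7%) at an adjusted p under 0.05, and 28.2% of the genes tested were called lower. The 2 of 5 reference genes that it called are not more than the 51.7% called in either direction. Both were called lower, and whether that exceeds the share of 28.2% was not tested.

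The level of gapdh was 389 and 399 CPM in Q_2a and Q_2b and 291 and 293 CPM in A_2a and A_2b, against 3002 CPM in Q_unsorted and 2032 CPM in A_unsorted. Every sorted library thus lay far below both embryos, and the groups did not overlap. The share of all genes whose groups did not overlap was not counted. gapdh averaged 343 ± 72.7 CPM in sorted cells of run 2 and 2517 ± 686 CPM in whole embryos (SD, n = 2 RNA samples each). The fitted log2 fold change was -2.93 (SE 0.45, 95% interval -3.91 to -1.95), which is a level 7.65-fold lower, with an edgeR adjusted p of 0.000174. Its absolute value was larger than that of 87.7% of all genes tested. The call was kept under each of the 14 alternative settings tried, with log2 fold changes of -3.28 to -2.42. It was kept only narrowly without the RNAqueous RNA of run 2 (log2 fold change -2.67), a fit with 1 sorted RNA.

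The level of hprt1 was 11.0 and 9.71 CPM in Q_2a and Q_2b and 15.0 and 11.3 CPM in A_2a and A_2b, against 30.1 CPM in Q_unsorted and 36.6 CPM in A_unsorted. All sorted libraries were again below both embryos, a separation whose share over all genes was not counted. hprt1 averaged 11.9 ± 2.23 CPM in sorted cells of run 2 and 33.4 ± 4.59 CPM in whole embryos (SD, n = 2 RNA samples each). The log2 fold change was -1.52 (SE 0.30, 95% interval -2.18 to -0.87), a level 2.87-fold lower, with an edgeR adjusted p of 0.00111. This call was also kept under each of the 14 alternatives.

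**Figure D1:**
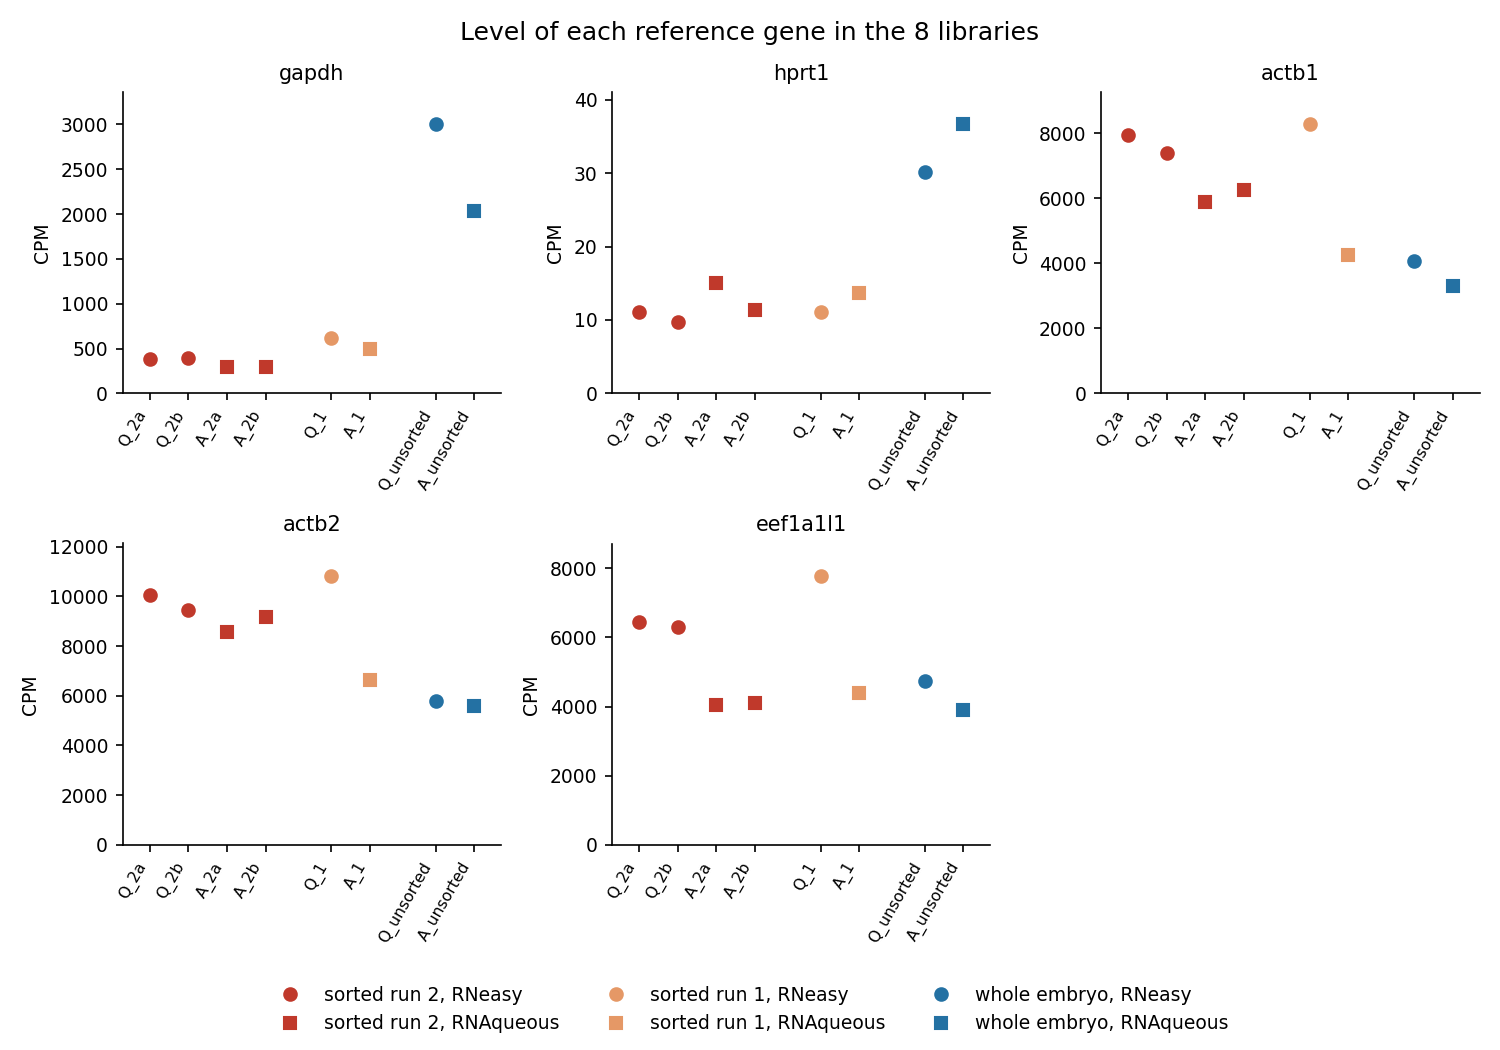
Level of each reference gene in CPM (vertical axis, starting at 0 and differing between panels) in each of the 8 libraries (horizontal axis), with colours for sorted run 2, sorted run 1 and whole embryos and shapes for the kits. gapdh and hprt1 were below both embryos in all 6 sorted libraries, whereas actb1, actb2 and eef1a1l1 had their highest level in the RNeasy library of run 1.

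The beta-actins lay on the other side. The level of actb2 was 10055 and 9455 CPM in Q_2a and Q_2b and 8577 and 9172 CPM in A_2a and A_2b, against 5810 CPM in Q_unsorted and 5591 CPM in A_unsorted. actb1 had 7958 and 7406 CPM in Q_2a and Q_2b and 5878 and 6251 CPM in A_2a and A_2b, against 4055 CPM in Q_unsorted and 3306 CPM in A_unsorted. For both genes the sorted libraries of run 2 did not overlap with the embryos, yet neither passed the test. As the share of all genes without overlap was not counted, such separation is by itself no result about a reference gene. The log2 fold change of actb1 was 0.85 (SE 0.46, 95% interval -0.14 to 1.83) with an edgeR adjusted p of 0.137, and that of actb2 was 0.66 (SE 0.46, 95% interval -0.33 to 1.65) with 0.244. These intervals reach up to 3.56-fold for actb1 and 3.13-fold for actb2 and do not show that the levels were alike. The call of actb1 depended on the processing. Its adjusted p was 0.0213 with DESeq2, and in edgeR it was 0.0453 with total counts in place of the scaling factors. In edgeR it was 0.0369 with technical replicates entered as separate libraries. That last value is too small, since each RNA of run 2 is then counted more than once. With kit as a covariate both beta-actins passed at almost the same log2 fold changes, 0.85 for actb1 (edgeR adjusted p 0.0021) and 0.66 for actb2 (edgeR adjusted p 0.00486). That fit called 11718 genes in all, against 11045 without the covariate, so passing in it is not particular to the beta-actins. It rests on 1 RNA per kit in each group.

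The level of eef1a1l1 was 6450 and 6289 CPM in Q_2a and Q_2b and 4039 and 4100 CPM in A_2a and A_2b, against 4725 CPM in Q_unsorted and 3890 CPM in A_unsorted. Its sorted libraries of run 2 overlapped with the embryos, unlike those of the other reference genes. The share of all genes without overlap was not counted, so this is by itself no result about eef1a1l1. The log2 fold change was 0.23 (SE 0.46, 95% interval -0.77 to 1.23) with an edgeR adjusted p of 0.702. Its direction was not stable, as it was -0.16 without the RNeasy RNA of run 2 and -0.0089 without the RNAqueous embryo.

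Sorted cells of run 1 were compared with the same embryos, so this comparison shares its embryo samples with the one above and is not independent of it. Of 20254 genes, edgeR called 8670 (42.8%), and 25.5% of the genes tested were called lower. gapdh and hprt1 were again lower and the other 3 reference genes did not pass.

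gapdh had 620 CPM in Q_1 and 495 CPM in A_1, with a log2 fold change of -1.99 relative to embryos (SE 0.56, 95% interval -3.19 to -0.79, edgeR adjusted p 0.0116). hprt1 had 11.1 CPM in Q_1 and 13.6 CPM in A_1, with a log2 fold change of -1.19 (SE 0.36, 95% interval -1.97 to -0.41, edgeR adjusted p 0.0180). These calls were less firm than those of run 2. The edgeR adjusted p of gapdh was 0.0790 without A_1, 0.0649 without Q_1 and 0.105 without the RNeasy embryo, and that of hprt1 was 0.0773 without Q_1, 0.0753 without the RNAqueous embryo and 0.0627 without the RNeasy embryo. Directions did not change in any of these fits.

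In run 1 the levels of the other reference genes, before TMM scaling, differed widely between the RNA samples. actb1 had 8273 CPM in Q_1 and 4264 CPM in A_1, actb2 had 10830 CPM in Q_1 and 6638 CPM in A_1, and eef1a1l1 had 7782 CPM in Q_1 and 4387 CPM in A_1. The log2 fold changes relative to embryos were 0.93 for actb1 (95% interval -0.43 to 2.30), 0.80 for actb2 (95% interval -0.59 to 2.19) and 0.67 for eef1a1l1 (95% interval -0.68 to 2.02), with edgeR adjusted p-values of 0.250, 0.339 and 0.412. actb1 passed with DESeq2 at an adjusted p of 0.0466.

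**Figure D2:**
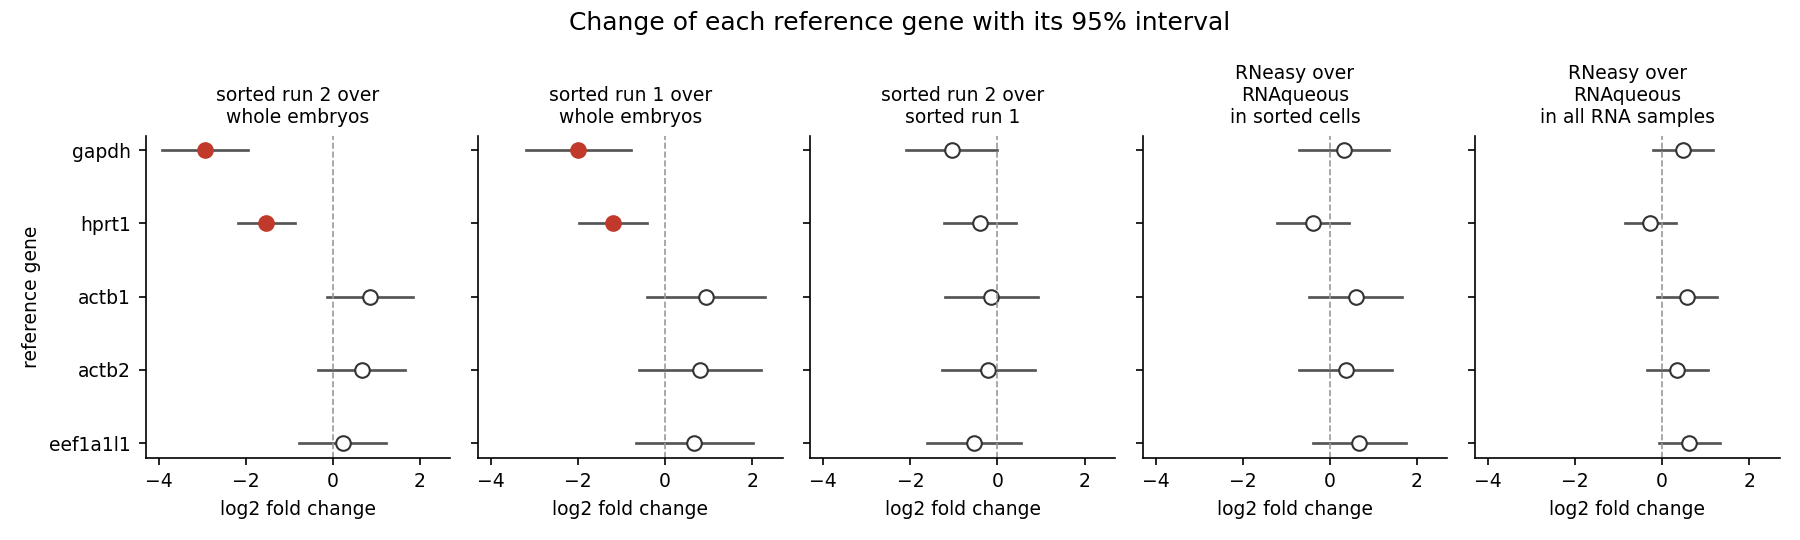
Log2 fold change (horizontal axis) of each reference gene (vertical axis) in the 5 comparisons, with points for the edgeR estimate, lines for its 95% interval and filled points where the adjusted p was under 0.05. gapdh and hprt1 were called lower in both comparisons with whole embryos, and all other intervals except that of gapdh between the runs include 0.

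The next question was whether levels in sorted cells differed between run 1 and run 2. Sequencing run, amplification cycles, RNA input and the RNA isolate all differed between them and cannot be told apart. With kit as a covariate, edgeR called 2149 of 19639 genes (10.9%) between run 2 and run 1, and none of the 5 reference genes. The estimate farthest from 0 was that of gapdh, with 394 and 291 CPM in the RNeasy and RNAqueous RNA of run 2, against 620 and 495 CPM in Q_1 and A_1. Both RNA samples of run 2 were below both of run 1, a separation whose share over all genes was not counted. The log2 fold change was -1.05 (SE 0.54, 95% interval -2.10 to -0.00036). Its unadjusted p in edgeR was 0.0499 and its adjusted p 0.205. Of all 19639 genes, 4791 had an unadjusted p under 0.05 in edgeR. With technical replicates entered as separate libraries the adjusted p of gapdh was 0.0124. That of eef1a1l1, whose log2 fold change was -0.54 (95% interval -1.61 to 0.53), was 0.0449 in that fit, against 0.581 with replicates summed. Such a fit counts each RNA of run 2 more than once, so both of these adjusted p-values are too small. The log2 fold changes of the other genes were -0.40 for hprt1 (95% interval -1.24 to 0.43), -0.21 for actb2 (-1.28 to 0.86) and -0.15 for actb1 (-1.21 to 0.92). Without scaling factors the last 2 turned to 0.13 for actb2 and 0.20 for actb1. In this comparison total counts moved the median log2 fold change of all genes by 0.34, and in that of run 1 with whole embryos by -0.21.

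The kits were compared over sorted cells and over all RNA samples. Within each of the 3 sources (run 1, run 2 and embryos), eef1a1l1, actb1, actb2 and gapdh were higher in the RNeasy RNA, and hprt1 was lower. The share of all genes that kept 1 direction in all 3 sources was not counted. The shared direction is thus by itself no result about the reference genes. Each source held 1 RNA per kit, so within a source the kit cannot be told apart from the embryo or sorted sample it was used on. On the scaled level, eef1a1l1 was 1.50-fold higher with RNeasy in run 1, 1.72-fold in run 2 and 1.43-fold in embryos. For actb1 these values were 1.64, 1.39 and 1.44, for actb2 1.38, 1.21 and 1.22, and for gapdh 1.06, 1.48 and 1.74. hprt1 was 1.45-fold lower with RNeasy in run 1, 1.19-fold in run 2 and 1.03-fold in embryos. Its technical replicates differed 1.32-fold in the RNAqueous RNA and 1.14-fold in the RNeasy RNA of run 2. The kit differences of run 2 and of embryos were within the larger of these.

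None of these kit differences passed the test. In sorted cells with run as a covariate, edgeR called 23 of 19639 genes (0.117%) and none of the reference genes. Over all RNA samples with source as a covariate it called 0 of 21081 genes (0%), with 830 genes at an unadjusted p under 0.05 and 3 genes called by DESeq2. The log2 fold change of eef1a1l1 over all RNA samples was 0.63 (SE 0.31, 95% interval -0.07 to 1.32, unadjusted p 0.0723, edgeR adjusted p 0.999). Those of actb1 (0.57, 95% interval -0.12 to 1.27), gapdh (0.48, -0.21 to 1.18), actb2 (0.34, -0.36 to 1.04) and hprt1 (-0.27, -0.86 to 0.32) were smaller in size. The upper limits allow a difference of up to 2.50-fold for eef1a1l1 and 2.41-fold for actb1. Whether the kit difference itself differed between sorted cells and embryos was tested as an interaction, with both runs pooled and no term for run. In it edgeR called 0 of 22228 genes, and the unadjusted p of the 5 reference genes was at least 0.635. The 95% intervals of the log2 interaction were wide, -3.27 to 2.15 for gapdh and -2.41 to 2.69 for eef1a1l1. They do not show that the kit differences were alike.

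How much each reference gene varied was then described by the SD of its log2 CPM after TMM scaling over the 6 RNA samples, set beside the same SD of 19847 genes with a count in every RNA sample. This is a description of these 6 RNA samples with no test. actb2 had the smallest SD, 0.413, below which lay 17.3% of the genes, and its highest RNA was 2.24-fold above its lowest. It was followed by eef1a1l1 with 0.469 (22.9% of genes below, 2.33-fold range) and actb1 with 0.543 (30.4% below, 2.89-fold range). hprt1 had an SD of 0.775 (50.9% below, 3.39-fold range), close to the median of 0.764 of all genes, and gapdh had 1.39 (83.2% below, 12.7-fold range). The order was not tested, and with total counts in place of TMM scaling eef1a1l1 (0.397) came before actb2 (0.404).

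Within sorted cells the order was different. Over the 4 sorted RNA samples the SD was 0.251 for actb2 (15.3% of genes below), 0.332 for hprt1 (26.3%), 0.360 for actb1 (30.5%), 0.504 for eef1a1l1 (49.7%) and 0.647 for gapdh (64.2%), with a median of 0.507 over all genes. hprt1 thus ranged 1.73-fold among sorted cells and 3.39-fold once the embryos were included. eef1a1l1 ranged 2.33-fold in both sets, since its extremes were both sorted RNA samples. Compared only with the 1531 genes of at least 100 CPM, a choice made after seeing the data, the percentiles over 6 RNA samples were 16.0 for actb2, 21.9 for eef1a1l1, 29.3 for actb1 and 82.0 for gapdh.

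**Figure D3:**
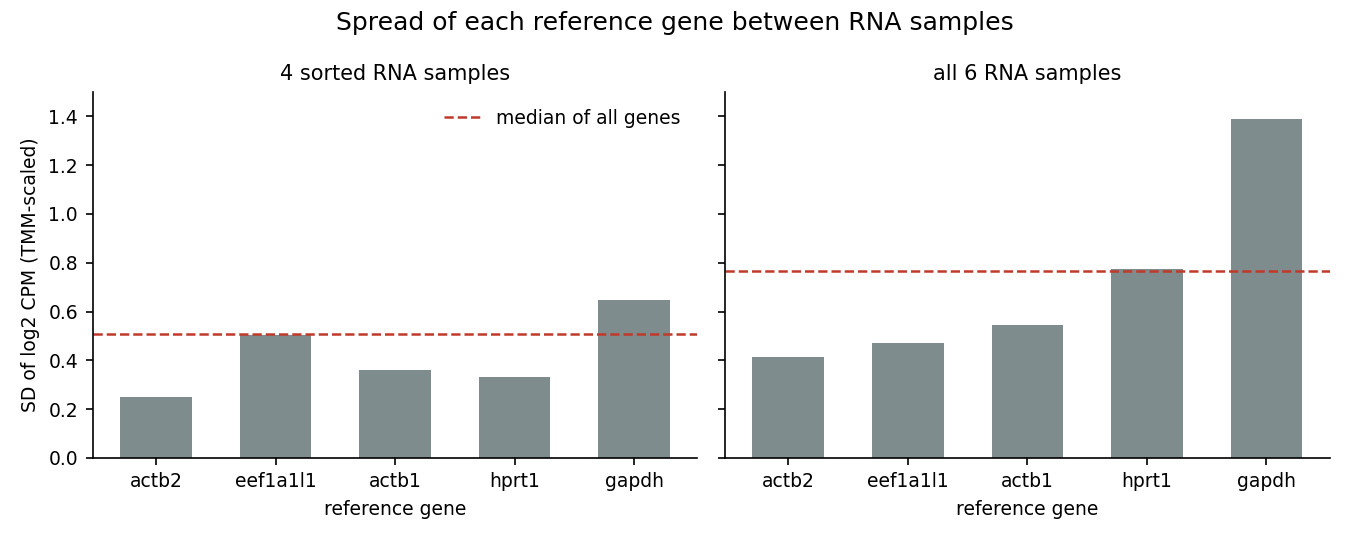
SD of the TMM-scaled log2 CPM (vertical axis) of each reference gene over the 4 sorted RNA samples (left) and over all 6 RNA samples (right), with a dashed line at the median SD of 19847 genes. gapdh had the largest SD in both sets (0.647 and 1.39), and hprt1 was at 0.332 among sorted cells and at 0.775 with the embryos included.

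A qPCR result is a ratio, and ratios between reference genes do not depend on how libraries are scaled. actb1 and actb2, the paralogous beta-actins, kept the most constant ratio of the 10 pairs, with an SD of the log2 ratio of 0.154 and a 1.33-fold range over 6 RNA samples. Per 100 counts of actb2 there were 79.1 and 78.3 counts of actb1 in Q_2a and Q_2b, 68.5 and 68.2 in A_2a and A_2b, 76.4 in Q_1 and 64.2 in A_1, against 69.8 in Q_unsorted and 59.1 in A_unsorted. The RNeasy library had the higher ratio in each source. Next came eef1a1l1 against actb2, with an SD of 0.276 and a 1.76-fold range.

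The ratio of gapdh to actb2 had a 15.6-fold range. Per 100 counts of actb2 there were 3.87 and 4.22 counts of gapdh in Q_2a and Q_2b, 3.39 and 3.19 in A_2a and A_2b, 5.72 in Q_1 and 7.45 in A_1, against 51.7 in Q_unsorted and 36.3 in A_unsorted. The highest sorted library was thus far below the lower embryo. Relative to actb1, gapdh was 13.5-fold lower in sorted cells of run 2 than in whole embryos, and relative to hprt1 it was 2.59-fold lower.

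For hprt1 the ratio to actb2 showed the same split. Per 1000 counts of actb2 there were 1.099 and 1.03 counts of hprt1 in Q_2a and Q_2b, 1.74 and 1.23 in A_2a and A_2b, 1.03 in Q_1 and 2.05 in A_1, against 5.19 in Q_unsorted and 6.55 in A_unsorted. Relative to actb2 hprt1 was 4.57-fold lower in sorted cells of run 2 and 4.01-fold lower in those of run 1 than in whole embryos. Relative to gapdh the mean ratio of hprt1 was 2.59-fold higher in run 2 and 1.65-fold higher in run 1 than in whole embryos, so its direction depended on the gene it was divided by. Per 1000 counts of gapdh there were 28.4 and 24.3 counts of hprt1 in Q_2a and Q_2b, 51.5 and 38.7 in A_2a and A_2b, 17.99 in Q_1 and 27.5 in A_1, against 10.04 in Q_unsorted and 18.03 in A_unsorted. Run 2 did not overlap with the embryos in this ratio, whereas run 1 did. These ratios were added after the levels had been seen.

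**Figure D4:**
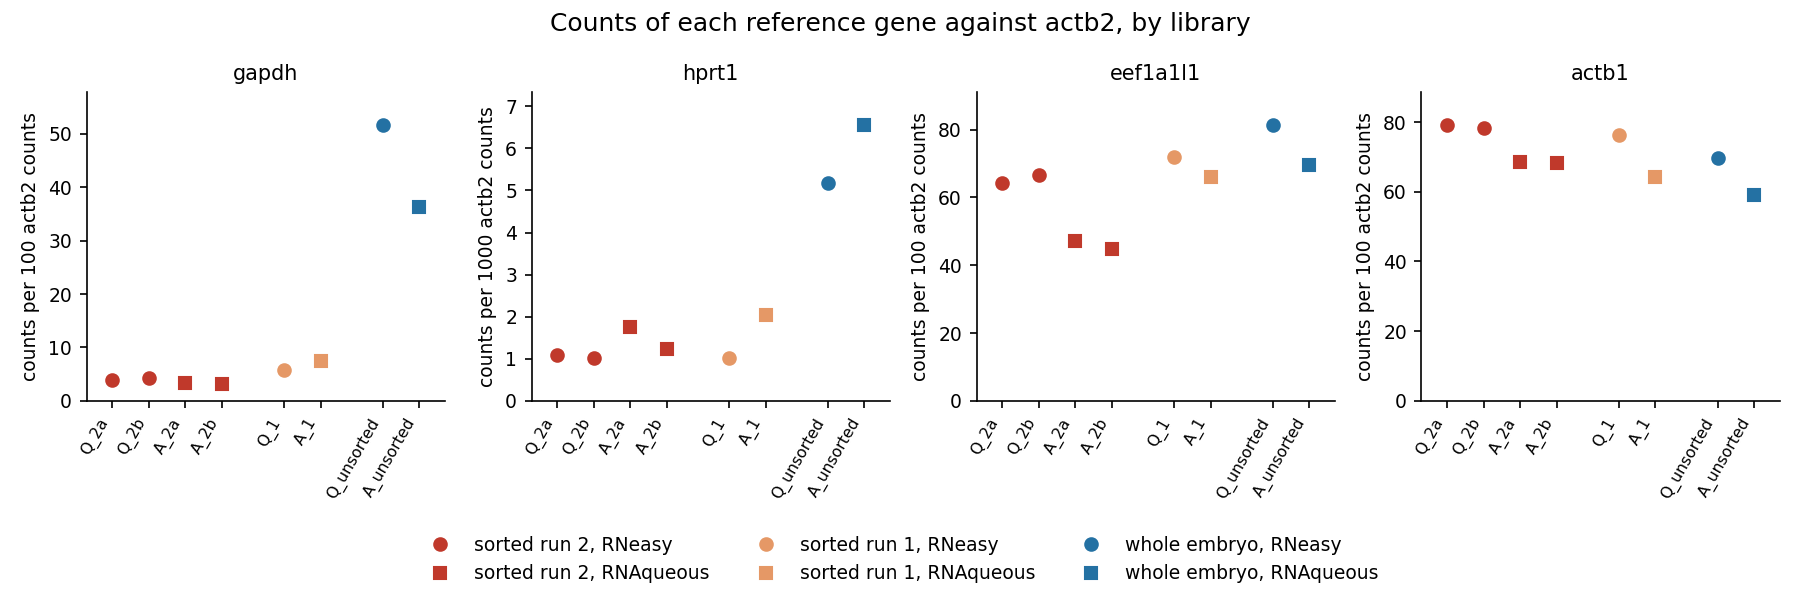
Counts of gapdh, eef1a1l1 and actb1 per 100 counts of actb2 and of hprt1 per 1000 counts of actb2 (vertical axes, starting at 0) in each library (horizontal axis), with colours for run and embryo and shapes for the kits. The ratios of gapdh and hprt1 were higher in both embryos than in every sorted library, and that of actb1 lay between 59.1 and 79.1 throughout.

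The other genes of the same pathways were examined from lists of symbols. Of 31 glycolysis genes other than gapdh, 29 were lower in sorted cells of run 2 than in whole embryos, 1 was higher and 1 did not pass, with a median log2 fold change of -2.10 against -0.0032 over all genes. In run 1, 25 were lower and 1 was higher, with a median of -1.95 against -0.057 over all genes. Among all genes tested, 28.2% were called lower in run 2 and 25.5% in run 1. ENO1 (ENSDARG00000013750), an enolase, had 4.44 and 2.39 CPM in the RNeasy and RNAqueous RNA of run 2, against 61.4 and 55.8 CPM in embryos (log2 fold change -4.13, edgeR adjusted p 4.48e-06). ldhbb, a lactate dehydrogenase, had 2.76 and 1.98 CPM in the RNA of run 2, against 39.8 and 38.4 CPM in embryos (log2 fold change -4.08, edgeR adjusted p 2.78e-06). The gene that was higher was HK2, a hexokinase, with 26.9 and 35.9 CPM in run 2, against 9.11 and 13.2 CPM in embryos (log2 fold change 1.47, edgeR adjusted p 0.00178). GAPDHS, the other glyceraldehyde-3-phosphate dehydrogenase gene and chosen after its values were seen, was also lower in run 2 (log2 fold change -1.49, edgeR adjusted p 0.00774). The skeletal muscle genes listed moved with glycolysis, 6 of 7 being lower in run 2 and 5 of 7 in run 1, and their part in the result was not tested. In these bulk RNA samples, fewer cells of a type and less RNA per cell cannot be told apart.

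Of 24 genes of purine synthesis and salvage other than hprt1, 14 were lower in sorted cells of run 2, 1 was higher and 9 did not pass, with a median log2 fold change of -1.11 (all genes -0.0032). In run 1, 15 were lower and 1 was higher, with a median of -1.31. The share of all genes called lower was 28.2% in run 2 and 25.5% in run 1. pnp4a, a purine nucleoside phosphorylase, had 4.24 and 3.18 CPM in the RNeasy and RNAqueous RNA of run 2, against 61.4 and 79.7 CPM in embryos (log2 fold change -4.27, edgeR adjusted p 1.24e-06). Its relative pnp4b had 0 and 0.137 CPM in run 2, against 14.5 and 28.9 CPM in embryos, and the 0 counts of Q_2a and Q_2b allow up to 0.189 and 0.167 CPM. The gene that was higher in run 2 was an ADA2 gene (ENSDARG00000051746), an adenosine deaminase, with a log2 fold change of 0.77 and an edgeR adjusted p of 0.0493. In run 1 it was prps1b, which makes the ribose donor used by hprt1, with a log2 fold change of 0.97 and an edgeR adjusted p of 0.0480. hprt1l, a paralogue of hprt1 chosen after its values were seen, had a log2 fold change of -1.50 in run 2 and -1.33 in run 1, with edgeR adjusted p-values of 0.00215 and 0.0226.

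The families of the other reference genes did not move as 1 group. Among all genes tested in run 2 against embryos, 51.7% were called and 28.2% were called lower. Of 8 actin and actin-related genes other than actb1 and actb2, 5 were lower in sorted cells of run 2 and 2 were higher, with a median log2 fold change of -2.40. The lower ones included the sarcomeric actins actc1b, with 8226 and 5646 CPM in run 2 against 51489 and 48853 CPM in embryos (log2 fold change -2.89, edgeR adjusted p 0.00117), and actc1a (log2 fold change -2.69, edgeR adjusted p 0.000266). The higher ones were actc1c (log2 fold change 4.12, edgeR adjusted p 4.85e-06) and actr2b, a gene of the Arp2/3 complex that nucleates actin filaments (log2 fold change 1.11, edgeR adjusted p 0.00981). Of 13 genes listed by symbol with the translation elongation factors, other than eef1a1l1, 3 were lower, 1 was higher and 9 did not pass. Their median was -0.07. An EEF1A1 paralogue (ENSDARG00000039502) had 3.23 and 3.76 CPM in run 2 against 32.8 and 40.0 CPM in embryos (log2 fold change -3.41, edgeR adjusted p 5.05e-06), and eef2a.1 was higher (log2 fold change 1.60, edgeR adjusted p 0.00153). Reads on multiple loci were left out of the counts, so genes with near-identical copies, such as the actins and the eef1a genes, are undercounted to an unknown extent. Multiple loci took 11.1% of the reads in Q_unsorted and 5.49% to 6.93% in the other libraries.

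**Figure D5:**
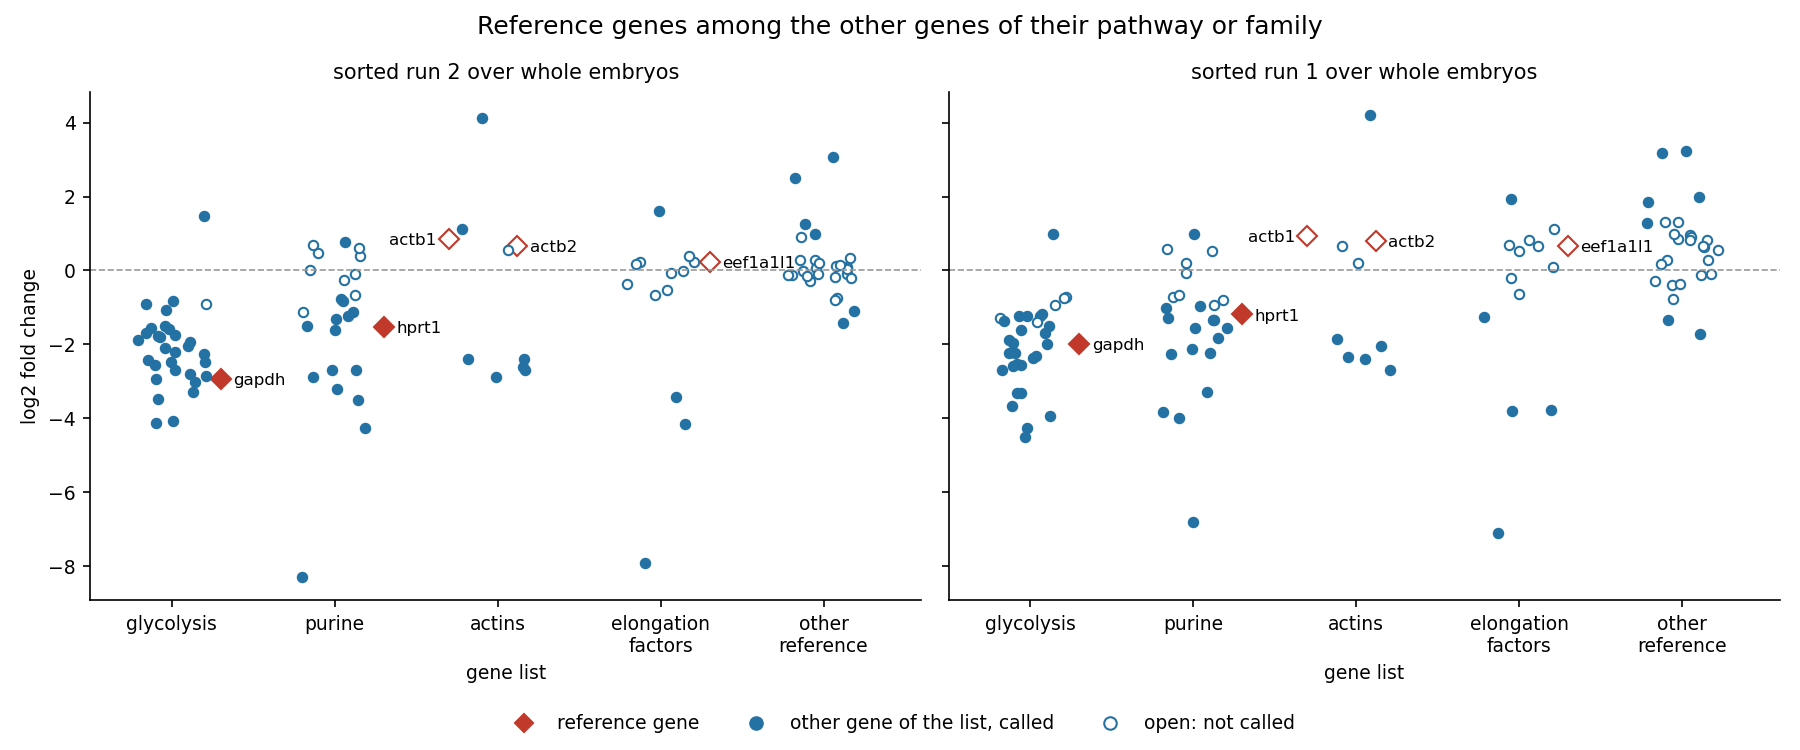
Log2 fold change (vertical axis) of each gene of 5 lists (horizontal axis) in sorted cells of run 2 (left) and run 1 (right) over whole embryos, with diamonds for the reference genes, circles for the other genes and filled symbols for an edgeR adjusted p under 0.05. Of the glycolysis genes other than gapdh, 29 of 31 (run 2) and 25 of 31 (run 1) were called lower. The share of all genes called lower was 28.2% and 25.5%. The points below -6 are genes with counts at or near 0 in sorted cells, whose value is no measure of size.

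Genes used as references in other zebrafish RT-qPCR work were set beside the 5. Of 27 such genes, 4 were higher and 2 were lower in sorted cells of run 2 than in whole embryos, and 21 did not pass, with a median log2 fold change of 0.04. The ubiquitin genes ubb (ENSDARG00000093313) and UBB (ENSDARG00000002369) were higher, with log2 fold changes of 3.07 and 2.50. TUBA1A, an alpha-tubulin, and SDHA, a subunit of succinate dehydrogenase, were lower, with log2 fold changes of -1.41 and -1.10. In run 1, 5 were higher and 2 were lower, led by the same genes. Both shares lay below those of all genes, of which 51.7% were called in run 2 and 42.8% in run 1. Of the 25 that averaged 10 CPM or more, 7 had a smaller SD over the 6 RNA samples than each of the 5 reference genes. Among them were TBP, the TATA-box binding protein, with an SD of 0.188, LSM12 (0.257), YBX1 (0.265), TMEM50A (0.373) and ywhaz (0.395). TBP had 17.1 and 18.8 CPM in the RNeasy and RNAqueous RNA of run 2 and 20.6 and 13.6 CPM in those of run 1, against 13.8 and 18.5 CPM in embryos. YBX1, a protein that binds RNA and DNA, had 1823 and 1365 CPM in run 2 and 1618 and 1250 CPM in run 1, against 1435 and 1245 CPM in embryos, and was the only one of the 7 above 1000 CPM. From the pathway lists, IMPDH1 (ENSDARG00000029524) and adssl of purine synthesis (SD 0.207 and 0.360) also had smaller SDs than the 5 reference genes. So did EEF1E1 and TUFM (0.257 and 0.386), which were listed by symbol with the elongation factors, and alas2 (0.329) among the erythrocyte genes. These genes stand out by their own spread in the same libraries, so their steadiness is a description with no test. With total counts in place of TMM scaling, a setting added after seeing the data, 6 of the 7 other references still had a smaller SD than the 5, and ywhaz (0.523) did not. Of the other lists, IMPDH1 (0.298) and EEF1E1 (0.352) did, and adssl (0.454), TUFM (0.428) and alas2 (0.480) did not.

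Among all 1531 genes that averaged 100 CPM or more, the 5 smallest SDs were those of STAU2 (0.071), ELAVL1 (0.078), RAB5C (0.084), gnb1b (0.095) and MLF2 (0.111). STAU2 and ELAVL1 are RNA-binding proteins and RAB5C is a small GTPase of early endosomes. STAU2 had 308 and 353 CPM in the RNeasy and RNAqueous RNA of run 2 and 264 and 212 CPM in those of run 1, against 261 and 312 CPM in embryos, a 1.16-fold range once scaled. They were picked as the smallest of 1531, with no test, and depended on the scaling. With total counts the SDs of STAU2, ELAVL1, RAB5C, gnb1b and MLF2 were 0.258, 0.250, 0.248, 0.247 and 0.225, which ranked 79, 69, 66, 64 and 48 among the 1531 genes, and STAU2 had a 1.66-fold range.

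The profiles of the reference genes over the 6 RNA samples were compared with those of 10203 genes whose mean reached 10 CPM by Pearson's r of log2(CPM + 1). This is a description over 6 RNA samples in 3 sources, 4 of them sorted. Among the 5, actb1 and actb2 had an r of 0.98, gapdh and hprt1 0.92, and eef1a1l1 had 0.82 with actb1 and 0.81 with actb2. hprt1 had an r of -0.86 with actb2, and gapdh had -0.63 with actb2. The genes most like hprt1 were si:ch211-266g18.10, YWHAG and si:ch211-195b11.3 (r of 0.998, 0.997 and 0.996). That they were lower in every sorted RNA than in either embryo follows from this choice. YWHAG, a 14-3-3 protein, had 5.93 and 8.20 CPM in run 2, 6.60 and 10.2 CPM in run 1, and 45.9 and 51.6 CPM in embryos. Those most like gapdh were CDNF, dhrs11b.2 and TLCD3B. CDNF, a neurotrophic factor, had 4.06 and 2.63 CPM in run 2, 8.27 and 6.03 CPM in run 1, and 48.0 and 27.5 CPM in embryos. For eef1a1l1 they were FNTB, AGMO and EIPR1, for actb1 ASB3, EIF2S3B and ARFIP1, and for actb2 RFTN2, CDK9 and zgc:113307, all with an r of at least 0.985.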

How the data were processed

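The authors aligned reads of SMART-seq v4 and Nextera XT libraries to GRCz10 with STAR and deposited, per library, unnormalized whole-number counts per Ensembl gene. Of its columns, the one that disregards strand was analysed because the cDNA synthesis does not preserve it. Depth ranged from 10763174 to 19537939 counts, and 3 counts correspond to 0.154 to 0.279 CPM. There are no molecular identifiers, so intervals from counts cover counting error only. Technical replicates were summed per RNA. Entering them as separate libraries treats them as independent, so p-values and counts of called genes under that alternative overstate the evidence. Tests used the quasi-likelihood test of edgeR 4.0.16 (TMM scaling, filterByExpr, Benjamini-Hochberg adjustment over all genes tested, threshold 0.05) in R 4.3.3, with 95% intervals from the moderated t distribution and standard errors from the F statistic. It was also run on simulated data with 200 changed genes, drawn at 1 dispersion for all genes. The outcome is not given here, and the run is no support for the results. Alternatives were DESeq2 1.42.0, other scalings, filters and count columns, separate libraries, 1 fit over all RNA samples, fits with or without a replicate block, and leaving out each RNA sample.

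The 5 genes and the 12 gene lists were chosen with earlier results of these data known, so adjusted p-values over a list alone are not given. Ensembl IDs were named from a table that covers 27000 of 35117 IDs, in which 169 of 179 listed symbols were found. Some are human-type symbols shared by several IDs. Named genes are the 5 reference genes, from each list of a pathway or family the 2 called genes with the largest change in each direction at a mean of at least 10 CPM, list genes with a smaller SD than all 5, the 3 genes most like each reference gene, and the 5 with the smallest SD at 100 CPM or more. Of the marker lists, mainly counts and summed levels are given. Some genes that this rule names are not reported here.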

Additional observations from a re-analysis of the deposited data

How the results depend on the processing

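Of 290 tested values of a reference gene under an alternative, 272 kept their direction and their side of the threshold. Of the rest, 8 passed only under the alternative, 6 no longer passed and 4 changed direction. The 6 were all values of gapdh and hprt1 in run 1 against embryos. The 272 include the values of both kit comparisons, in which no reference gene had a call to lose. Another 40 values had no test, and 0 of them changed direction. Beside those given with the results, kit as a replicate block called actb1 (log2 fold change 0.85, adjusted p 0.0021) and actb2 (0.66, 0.00486) in run 2 against whole embryos and 11718 genes in all, and changed no other call of a reference gene. Each group held 1 RNA per kit, so kit can serve as a block, but the labels do not pair individual samples beyond the shared kit. The deviations of same-kit samples correlated at 0.29 (Spearman) with the embryos for run 2, -0.14 for run 1 and -0.16 between the runs. The estimates of actb1 that passed were 0.89 with total counts, 0.84 with DESeq2 and 0.80 with separate libraries for run 2, and 0.98 with DESeq2 for run 1, actb2 and actb1 turned to 0.13 and 0.20 between the runs with total counts, and estimates there with separate libraries were -1.07 for gapdh and -0.56 for eef1a1l1. Leaving out each RNA sample gave -0.16 to 0.57 (-0.0089 without the RNAqueous embryo) for eef1a1l1 in run 2, and -2.35 to -1.53 for gapdh and -1.46 to -0.94 for hprt1 in run 1, relative to embryos. The SD over RNA samples was 0.405 to 0.607 for actb1 and 1.08 to 1.55 for gapdh.

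Counts of called genes moved by over 1.5 times as follows. A mean of at least 10 CPM, a filter under which fewer genes were tested, left 5601 genes in run 2 and 3894 in run 1 against embryos. Between the runs it left 1141. Leaving out 1 RNA sample gave 5572 (without the RNAqueous RNA of run 2) to 10466 in run 2 against embryos. Between the runs there were 1376 with total counts, 1041 with DESeq2, 5218 with separate libraries, 359 in 1 fit over all RNA samples and 1414 with no replicate block. For kits in sorted cells there were 9 with total counts, 11 with DESeq2, 0 in 1 fit over all RNA samples and 0 with no replicate block. For kits over all RNA samples there were 28 without a filter, 3 with DESeq2 and 0 to 39 without 1 RNA sample. The cause of these shifts was not tested. Leaving out 1 RNA sample between the runs or between kits in sorted cells left no residual degree of freedom and gave values with no test. hprt1 had 120 to 611 counts per library, which limits what its technical replicates resolve.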

Other observations

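Cytosolic ribosomal protein genes are a family often proposed as references. Of 42 genes of the large subunit, edgeR called 0 in sorted cells of run 2 against whole embryos. Their median log2 fold change was -0.03, and 51.7% of all genes were called there. In run 1 against the same embryos, 7 were higher and 0 were lower, with a median of 1.15, while 42.8% of all genes were called there. The largest changes there were those of rplp2l, with 470 and 1183 CPM in Q_1 and A_1 against 320 and 231 CPM in embryos (log2 fold change 1.84, edgeR adjusted p 0.0223), and RPL12, with 821 and 751 CPM in Q_1 and A_1 against 295 and 220 CPM in embryos (log2 fold change 1.80, edgeR adjusted p 0.00971). Between run 2 and run 1 the median was -1.22 and 1 of 42 genes, RPL11, was called lower (log2 fold change -1.71, edgeR adjusted p 0.0267), while 10.9% of all genes were called. None of the 42 had a smaller SD over the 6 RNA samples than actb2, and 21 had a smaller SD than hprt1.

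Of 27 other references, 2 were called between the runs, a share below the 10.9% of all genes. RNF7 and POLR2D were lower in run 2 than in run 1, with log2 fold changes of -1.74 and -1.51 and edgeR adjusted p-values of 0.0190 and 0.0485. Of 31 glycolysis genes other than gapdh, 1 was called, PGAM2, which was lower in run 2 than in run 1 (log2 fold change -1.35, edgeR adjusted p 0.0424).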
